A study of Mus musculus with 8 samples.

Results

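Fos, Fosb, Fosl1, Fosl2, Jun, Junb, Jund, Egr1, Egr2 and Egr3, the transcription factor genes of the AP-1 complex and of the Egr family, were compared between SThdh111/111 and SThdh7/7 cells. The members are these 10 genes, and each was followed through every probe set that the platform's gene table pairs with it alone. That gave 16 probe sets for the 10 genes, out of 45037 on the array, and all 16 passed the filter on dim values, which 41409 passed. Where 1 value per gene is given, it comes from the gene's brightest probe set on average across the 8 arrays, and 17389 genes had such a value.

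The series holds total RNA from 4 samples of SThdh7/7 and 4 of SThdh111/111 on Affymetrix mouse expression arrays. Cell lines of these names were derived from the embryonic striatum of knock-in mice and immortalised with a temperature-sensitive viral antigen, as background. Both copies of Huntingtin carry a glutamine tract whose length gives the line its number, 7 in the control and 111 in the model of Huntington's disease. Each genotype is 1 line, so that genotype cannot be told apart from anything else that differs between the lines. Serum, temperature, passage and whether the samples were separate cultures are not given in the sources used here, so a p-value here covers sample-to-sample spread alone, which may be technical.

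AP-1 is a dimer of 1 Fos protein with 1 Jun protein, or of a pair of Jun proteins, joined through their leucine zippers. The Egr proteins bind GC-rich DNA through zinc fingers. Most of these genes are immediate early genes: growth factors, serum, stress or synaptic activity raise their transcripts within minutes through MAP kinases that act on SRF, ternary complex factors and CREB already bound at their promoters, and the transcripts decay as fast. Fosl1 and Fosl2 rise later and stay longer, Fosl1 partly through AP-1 itself, and Jund is expressed in most resting cells. In the striatum, Fos, Fosb and Egr1 are widely used to mark neurons that have recently fired.

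All values are log2 of the deposited intensity, and each difference is SThdh111/111 minus SThdh7/7 from a limma fit over all kept probe sets. A gene was called at an adjusted p under 0.05. Kept probe sets as a whole had a median difference of -0.12, or 0.04 once arrays were centred on their medians, and member differences can be read against either. SThdh7/7 samples 1 and 2 stood apart in median intensity, at 173.9 and 174.0 against 136.2 to 147.0 on the other 6 arrays. The mean intensity after trimming both ends was 500 on every array, so this was not a difference in brightness as a whole. The ratio of the 3′ to the 5′ control probe set of Actb, a sign of RNA quality, was 1.06 to 1.23 in SThdh7/7 and 1.11 to 1.18 in SThdh111/111. That of Gapdh was 0.710 to 0.751 and 0.677 to 0.724. A background level was set at 130.0 (log2 7.02) from bacterial control probe sets. This is the highest level of any array. The SThdh111/111 arrays gave 72.0 to 77.5 by the same measure, so counts below background fall more readily on SThdh111/111. Intensity is an average over a sample's cells, so that more expressing cells and more RNA per cell cannot be told apart.

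Of the 10 genes, 5 rose in SThdh111/111, Fos, Fosb, Jun, Junb and Jund, and 1 fell, Fosl1. Over all genes, 13.1% were called higher and 15.9% lower. Of the 16 probe sets, 5 were called higher and 3 lower, where 22.4% of all kept probe sets were called in either direction. The arrays of the lines did not overlap for 6 of the 10 genes, against 31.6% of all genes. The median difference of the 10 genes was 0.25, and that of all genes -0.09. The count of 5 rested in part on single arrays: it was 3 without SThdh111/111 sample 1, without SThdh111/111 sample 2 or without SThdh7/7 sample 3. It was 4 without SThdh7/7 samples 1 and 2 together, and 2, Fos and Junb, without SThdh111/111 samples 1 and 2 together. Fosl1 was called lower in each of these fits.

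**Figure D1:**
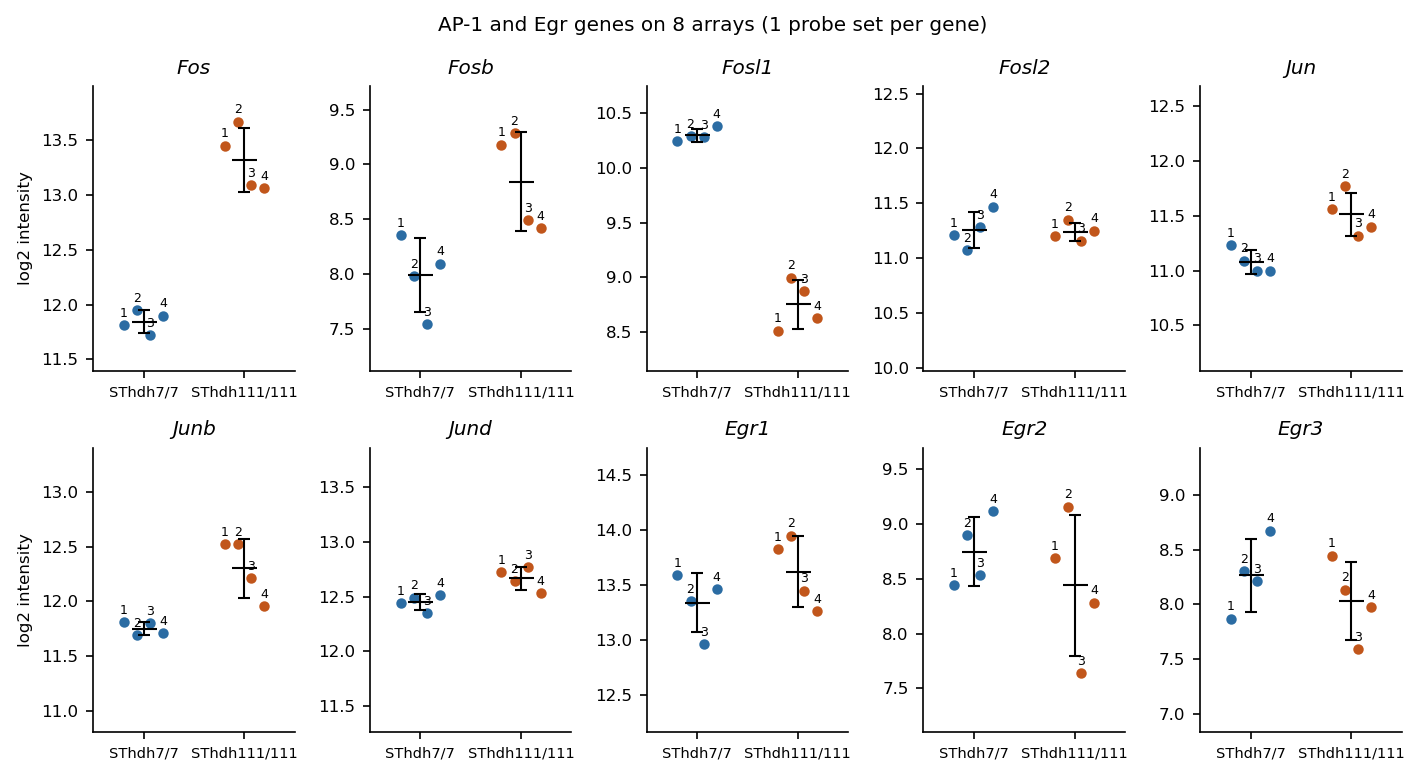
Log2 intensity (vertical axis, each panel spanning the same range of log2 units) of the 10 genes on the 4 SThdh7/7 arrays (blue) and the 4 SThdh111/111 arrays (orange), 1 probe set per gene, with sample numbers beside the points and black bars for the mean ± SD. Fos lies higher and Fosl1 lower on every SThdh111/111 array, while the lines overlap for Fosl2 and for Egr1, Egr2 and Egr3.

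Fos, the founding partner of Jun in AP-1 and the gene most often used as a sign of recent stimulation, was 2.78-fold higher in SThdh111/111. Its 1 probe set read 11.81, 11.95, 11.72 and 11.90 on SThdh7/7 samples 1 to 4, and 13.45, 13.67, 13.09 and 13.06 on SThdh111/111 samples 1 to 4. The SThdh111/111 arrays were all above the SThdh7/7 arrays, and samples 1 and 2 were the higher pair among them. The mean went from 11.84 ± 0.10 (SD, n = 4) to 13.32 ± 0.29, a difference of 1.47 ± 0.12 (SE; 95% interval 1.22 to 1.73; limma adjusted p = 5.0e-07). Fos was called higher under all 21 alternative settings, with differences of 1.23 to 1.63.

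Fosl1, which encodes FRA-1, a Fos protein without the strong activation domain of Fos itself, moved the other way and was 2.92-fold lower in SThdh111/111. The brighter of its 2 probe sets read 10.24, 10.29, 10.28 and 10.38 on the SThdh7/7 arrays, a tight group, and 8.51, 9.00, 8.88 and 8.63 on the SThdh111/111 arrays. No SThdh111/111 array came within 1 log2 unit of the SThdh7/7 arrays. The difference was -1.55 ± 0.12 (SE; 95% interval -1.80 to -1.29; adjusted p = 3.1e-07). The second probe set read 8.84, 8.73, 8.48 and 8.65 in SThdh7/7, and 5.80, 6.36, 7.25 and 7.09 in SThdh111/111, where samples 1 and 2 were below the background level. Its fitted difference was -2.05 ± 0.31 (SE; adjusted p = 2.1e-04), and -1.58 with values below that level set to it. Fosl1 was called lower under all 21 alternatives, with differences from -1.80 to -1.39.

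Fosb, which encodes the full-length FosB protein and the truncated form that builds up in striatal neurons on repeated stimulation, was dimmer and less even. Its 1 probe set, which does not separate these forms here, read 8.35, 7.98, 7.54 and 8.09 in SThdh7/7 and 9.18, 9.29, 8.49 and 8.42 in SThdh111/111. The lines did not overlap, but SThdh7/7 sample 1 came within 0.1 of SThdh111/111 sample 4. The difference was 0.85 ± 0.24 (SE; 95% interval 0.34 to 1.36; adjusted p = 0.018). The call was lost without SThdh111/111 sample 1 (0.74, adjusted p = 0.065) or sample 2 (0.70, adjusted p = 0.069), without SThdh7/7 sample 3 (0.70, adjusted p = 0.051) and without an intensity trend (adjusted p = 0.073). Without SThdh111/111 samples 1 and 2 together the difference was 0.46 (adjusted p = 0.32).

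Fosl2 encodes FRA-2, the other late Fos protein, and its 2 probe sets disagreed. The brighter read 11.07 to 11.47 in SThdh7/7 and 11.16 to 11.35 in SThdh111/111, overlapping throughout, with a difference of -0.02 ± 0.09 (SE; 95% interval -0.21 to 0.17; adjusted p = 0.91). The dimmer read 9.48, 9.64, 9.21 and 9.35 against 9.09, 8.89, 8.98 and 8.82, and its difference of -0.48 ± 0.12 (SE) passed the threshold (adjusted p = 0.012). The mean of both was called lower at -0.25 (adjusted p = 0.017). Which transcript forms each of them measures was not tested.

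**Figure D2:**
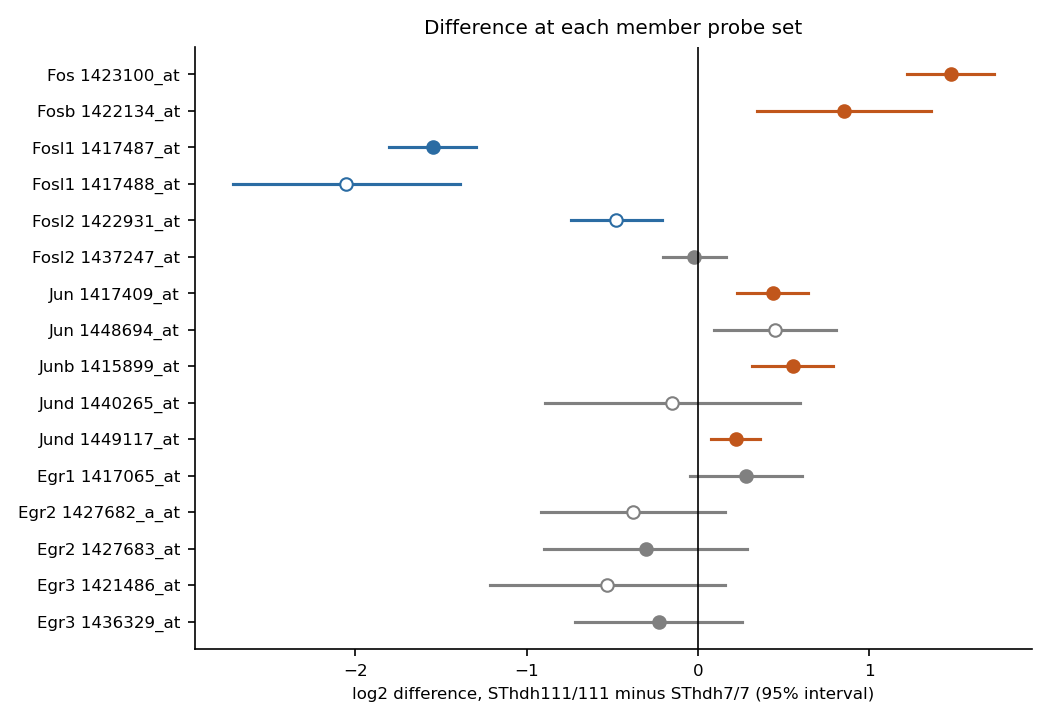
Log2 difference (SThdh111/111 minus SThdh7/7, horizontal axis) with its 95% interval at each of the 16 probe sets of the 10 genes. Orange marks probe sets called higher, blue those called lower and grey those not called, and filled points are the probe sets used for a gene. The Fos interval, 1.22 to 1.73, and the interval of the filled Fosl1 point, -1.80 to -1.29, lie on opposite sides of 0, and all 5 Egr probe sets have intervals that include 0.

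The 3 Jun genes were all called higher, by less than Fos. Junb, whose product is a weaker activator than Jun and can restrain it, read 11.81, 11.69, 11.80 and 11.71 in SThdh7/7 and 12.52, 12.52, 12.21 and 11.96 in SThdh111/111. The SThdh7/7 arrays lay close together, and SThdh111/111 sample 4 was the nearest to them. The difference was 0.55 ± 0.11 (SE; 95% interval 0.32 to 0.79; adjusted p = 0.0019), and it was called under all 21 alternatives, from 0.34 to 0.71.

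Jun, the main partner of Fos and the target of the JNK kinases, read 11.23, 11.09, 11.00 and 11.00 in SThdh7/7 and 11.56, 11.77, 11.32 and 11.40 in SThdh111/111. The lines did not overlap, though SThdh7/7 sample 1 lay within 0.1 of SThdh111/111 sample 3. The difference was 0.44 ± 0.10 (SE; 95% interval 0.23 to 0.64; adjusted p = 0.0044). A second Jun probe set differed by about as much, 0.45 ± 0.17 (SE), but its arrays overlapped and it was not called (adjusted p = 0.073). The call at the first was lost without SThdh111/111 samples 1 and 2 together (0.28, adjusted p = 0.076) and without an intensity trend (adjusted p = 0.064).

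Jund, the Jun gene of resting cells, read 12.44, 12.49, 12.35 and 12.51 in SThdh7/7 and 12.72, 12.64, 12.77 and 12.53 in SThdh111/111. The lines were separated by the gap between SThdh7/7 sample 4 and SThdh111/111 sample 4 alone. The difference, 0.22 ± 0.07 (SE; 95% interval 0.07 to 0.36; adjusted p = 0.031), was the smallest called among the 10 genes. The call was lost under 11 of 21 alternatives, among them quantile normalization (0.10, adjusted p = 0.44) and the fit without SThdh7/7 samples 1 and 2 (0.24, adjusted p = 0.062). A second Jund probe set lay near or below the background level and carries little information. It was above that level on 2 of 4 SThdh7/7 arrays and on 0 of 4 SThdh111/111 arrays. Since the control probe sets of the SThdh111/111 arrays read lower than that level, these counts do not rank the lines.

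Because Fos, Fosb, Jun, Junb and Jund were called higher together, the 150 bases before their transcription starts are shown, from RefSeq on GRCm38.p6. The table held a window for 7 of the 10 genes. Capitals mark matches on either strand to the CRE half-site TGACGT, the CRE-like site TGACNTCA, the Egr site GCGNGGGCG, the TATA box TATAAA or the CCAAT box CCAAT. The AP-1 site TGANTCA and the CArG box, which SRF binds, were also searched. A CRE-like site with G at its open position contains the half-site, and a CArG box can contain the TATA box or the CCAAT box.
Fos, chr12:85473740-85473889, plus strand: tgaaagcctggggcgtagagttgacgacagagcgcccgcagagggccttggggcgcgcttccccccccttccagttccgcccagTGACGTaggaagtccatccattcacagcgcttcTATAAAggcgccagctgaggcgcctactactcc
Fosb, chr7:19310046-19310195, minus strand: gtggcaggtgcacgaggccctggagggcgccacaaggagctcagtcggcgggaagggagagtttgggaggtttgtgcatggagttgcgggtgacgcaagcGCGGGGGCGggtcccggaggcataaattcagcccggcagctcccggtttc
Jun, chr4:95052223-95052372, minus strand: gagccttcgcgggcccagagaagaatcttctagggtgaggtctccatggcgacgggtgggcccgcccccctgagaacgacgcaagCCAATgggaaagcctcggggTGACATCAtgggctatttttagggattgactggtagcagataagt
Junb, chr8:84978749-84978898, minus strand: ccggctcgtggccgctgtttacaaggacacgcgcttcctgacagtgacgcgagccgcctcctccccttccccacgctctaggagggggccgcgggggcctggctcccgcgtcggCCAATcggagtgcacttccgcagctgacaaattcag
Jund, chr8:70697589-70697738, plus strand: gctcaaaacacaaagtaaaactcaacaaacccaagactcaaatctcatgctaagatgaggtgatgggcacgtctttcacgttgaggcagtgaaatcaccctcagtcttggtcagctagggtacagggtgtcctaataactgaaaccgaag

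These 5 windows shared no motif of the search except the CCAAT box of Jun and Junb, found in 24.5% of 32851 RefSeq windows of that length. The Jund window held 0 matches to the motifs searched. The Fos window held the CRE half-site, whose first base lies 66 bases before the start, and a TATA box; 5.15% and 7.57% of all windows hold them. The Jun window held the CRE-like site TGACATCA beginning 45 bases before the start (5.70% of windows), and the Fosb window the Egr site GCGGGGGCG beginning 50 bases before it (3.81% of windows). Neither the Egr site nor the CRE half-site was limited to the genes called higher. The Fosl2 window held the same Egr site, beginning 79 bases before its start, and windows of Egr2 held the CRE half-site and a CCAAT box. A CArG box was found in windows of Egr2, which was not called, and in 0.916% of all windows, and no member's window held TGANTCA, found in 4.24%. These are matches of letters within 150 bases and say nothing of binding. Bases further from the start were not searched, so a motif not found here may lie outside the window. Fosl1, Egr1 and Egr3 had no window.

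None of the 3 Egr genes was called in the limma fit, and none passed an unadjusted p of 0.05 either (0 of 3). Egr1, an early responder to ERK signalling whose promoter carries several SRF sites, read 13.59, 13.35, 12.96 and 13.46 in SThdh7/7 and 13.83, 13.95, 13.45 and 13.26 in SThdh111/111. The lines overlapped, with SThdh111/111 samples 1 and 2 above every SThdh7/7 array and sample 4 below 3 of them. The difference was 0.28 ± 0.15 (SE; 95% interval -0.05 to 0.61; adjusted p = 0.24), so the interval holds both no change and a rise as large as that of Junb.

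Egr2, known from myelination and hindbrain patterning, read 8.44, 8.90, 8.53 and 9.12 in SThdh7/7 and 8.69, 9.16, 7.64 and 8.28 in SThdh111/111. SThdh111/111 held both the highest and the lowest array, samples 2 and 3, and the difference was -0.31 ± 0.27 (SE; 95% interval -0.90 to 0.29; adjusted p = 0.51). Its second probe set differed by -0.38 (adjusted p = 0.34). Egr3, a target of the same stimuli that sustains activity-driven expression in neurons, read 7.87 to 8.67 in SThdh7/7 and 7.59 to 8.45 in SThdh111/111, a difference of -0.23 ± 0.23 (SE; adjusted p = 0.55). The second Egr3 probe set, above the background level on 2 of 4 SThdh111/111 arrays, differed by -0.53 ± 0.32 (SE; adjusted p = 0.29). All 4 Egr2 and Egr3 probe sets had negative differences with intervals that include 0, and since their lower ends lie at -0.72 to -1.21, falls of those sizes are not excluded.

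The order of the arrays within SThdh111/111 was shared by most members. For Fos, Fosb, Jun, Junb, Egr1, Egr2 and Egr3, 7 of the 10 genes, samples 1 and 2 both lay above samples 3 and 4, which held for 17.2% of all genes. For Fosl1, Fosl2 and Jund it did not hold. Within SThdh7/7 the same order was seen for Jun alone among the 10, and for 29.6% of all genes. This order was noticed after the values were seen, and its part in the differences between the lines is given by the fits without those samples above. The Actb 3′ to 5′ ratios of SThdh111/111 samples 1 to 4 were 1.16, 1.15, 1.11 and 1.18.

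**Figure D3:**
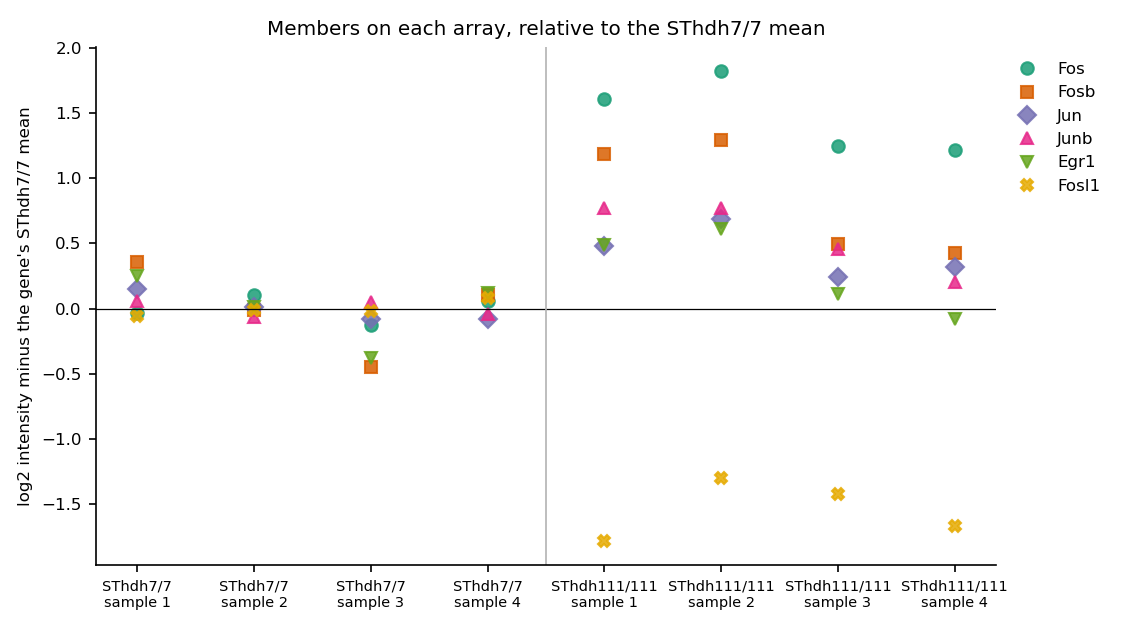
Log2 intensity minus the gene's SThdh7/7 mean (vertical axis) for Fos, Fosb, Jun, Junb, Egr1 and Fosl1 on each of the 8 arrays. On SThdh111/111 samples 1 and 2 the first 5 genes lie higher than on samples 3 and 4, and Fosl1 lies below 0 on all 4 SThdh111/111 arrays.

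The other immediate early genes were split. Of 33 listed, 32 were kept, and 9 rose, 9 fell and 14 were not called (median -0.11). Those that rose were Zfp36, Dusp1, Rgs2, Arc, Nr4a1, Btg2, Klf2, Gadd45b and Ier3. Those called lower were Ier5, Ccn2, Pim1, Sgk1, Plk2, Ccn1, Klf10, Myc and Maff, and 5 were lower after centring of the arrays. Zfp36, whose protein binds AU-rich elements and speeds the decay of short-lived transcripts, went from 10.48 to 12.32 (difference 1.85 ± 0.10, SE; adjusted p = 1.3e-08). Dusp1, a phosphatase that switches MAP kinases off, rose by 1.18 ± 0.09 (SE; adjusted p = 2.2e-07). Ier5 differed by -0.72 ± 0.06 (SE; adjusted p = 1.2e-06), and Ccn2, the connective tissue growth factor gene, by -1.44 ± 0.15 (SE; adjusted p = 8.1e-06).

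**Figure D4:**
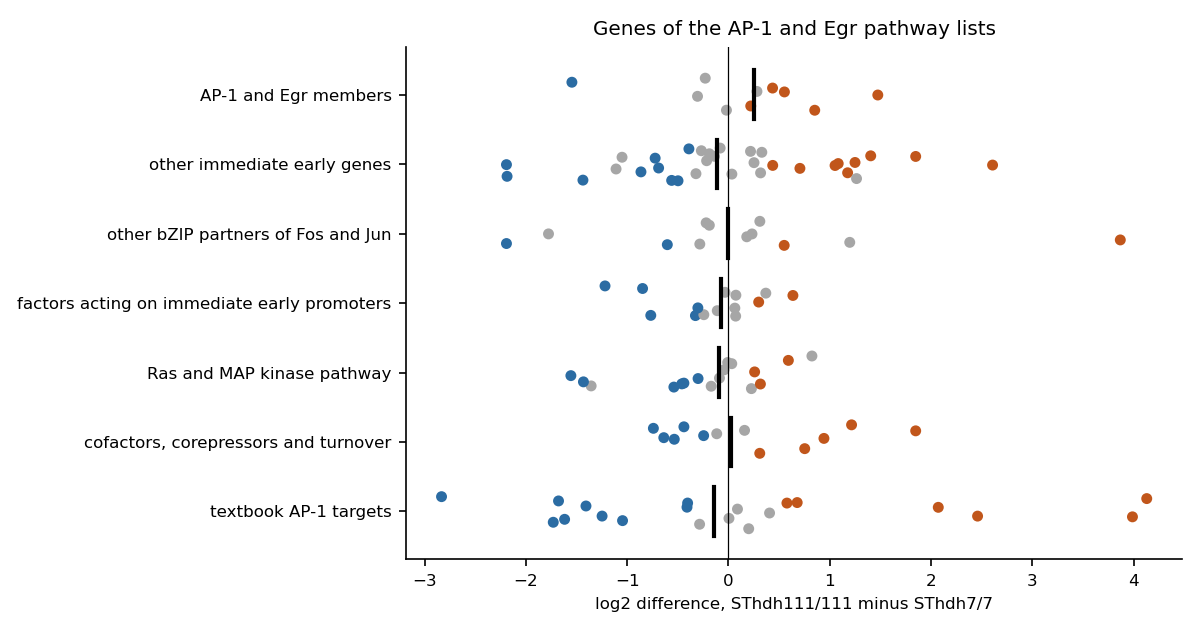
Log2 difference (SThdh111/111 minus SThdh7/7, horizontal axis) of each kept gene in the list of 10 members and in 6 lists around them, with 1 point per gene (orange called higher, blue called lower, grey not called; vertical scatter within a row is only for display). Black bars are list medians, which lie between -0.14 and 0.25, and every list holds genes called in both directions.

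Among 12 kept bZIP genes whose products can pair with Fos or Jun proteins or share their sites, 2 rose and 2 fell (median -0.0045). Maf, a large Maf protein that binds an extended AP-1 site, went from 8.81 ± 0.30 (SD, n = 4) to 12.68 ± 0.07, a difference of 3.87 ± 0.12 (SE; adjusted p = 4.6e-11), and 4 of its 5 other probe sets were called higher as well. Atf7, an ATF2-like factor, rose by 0.55 ± 0.13 (SE; adjusted p = 0.0074), and Jdp2, a repressor that dimerises with Jun, fell (difference -0.60; adjusted p = 2.9e-04). Both calls were lost with the mean over the gene's probe sets, and that of Atf7 also without SThdh111/111 samples 1 and 2. That of Jdp2 was also lost without probe sets that can match several transcripts (-0.067, adjusted p = 0.94). Maff, a small Maf protein, was above the background level on 2 of 4 SThdh7/7 arrays and on 0 of 4 in SThdh111/111. No bound on its fold is given, since SThdh7/7 arrays were in part below that level too. Its fitted difference was -2.19 (adjusted p = 0.0078), and -0.32 with values below that level set to it.

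Factors that act on immediate early promoters were called higher in 2 of 14 cases and lower in 5 (median -0.07), and 3 were lower after centring of the arrays. Elk3 and Elk1, ternary complex factors that carry ERK signals to SRF, fell, with differences of -0.77 and -0.85 (adjusted p = 7.6e-06 and 0.0011). Mef2a, a MADS-box factor, rose by 0.64 ± 0.09 (SE; adjusted p = 8.8e-05). Mrtfb, an SRF coactivator, rose by 0.30 ± 0.07 (SE; adjusted p = 0.0094), but its mean over probe sets was -0.40. Srf itself, named for its role after its values were seen, differed by -0.03 ± 0.11 (SE; 95% interval -0.26 to 0.19; adjusted p = 0.87).

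In the Ras and MAP kinase pathway, 17 of 26 listed genes had a value, and 3 rose and 6 fell (median -0.09), with 1 lower after centring of the arrays. Nras, a Ras GTPase, fell (difference -0.44; adjusted p = 0.0026), a call lost after centring and without SThdh111/111 samples 1 and 2. Rps6ka5 encodes the MSK1 kinase that phosphorylates CREB and histone H3 at immediate early promoters. It was above background on all SThdh7/7 arrays and on 0 of 4 SThdh111/111 arrays, at least 1.74-fold lower. Its fitted difference was -1.56 (adjusted p = 0.0027), and -0.80 with values below background set to that level. Its call was lost without SThdh7/7 samples 1 and 2. The calls of Braf (0.59 ± 0.17, SE; adjusted p = 0.023) and Map2k1 (0.26 ± 0.08, SE; adjusted p = 0.026), kinases upstream of ERK, were lost under 7 and 8 of 21 alternatives.

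Of 12 kept cofactors, corepressors and turnover factors, Zfp36 again among them, 5 rose and 5 fell (median 0.02), and 1 was lower after centring of the arrays. Zfp36l2, a paralogue of Zfp36 with the same RNA-binding fold, rose by 1.22 ± 0.09 (SE; adjusted p = 3.2e-07) at its brightest probe set. Neither of its 2 other kept probe sets was called, and the mean over probe sets was 0.53 (adjusted p = 0.012). Zfp36l1, a further member of that family, named after its values were seen, rose by 0.94 ± 0.08 (SE; adjusted p = 6.6e-07). Hnrnpd, the AUF1 protein that also binds AU-rich elements, fell (difference -0.74; adjusted p = 1.9e-04), a call lost without probe sets that can match several transcripts. Nab1, a corepressor that binds Egr proteins, was lower (difference -0.44; adjusted p = 4.0e-04), a call lost after centring and when its probe sets were averaged.

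Textbook targets of AP-1 also went both ways, with 6 of 20 higher and 9 lower (median -0.14). Mmp3, stromelysin-1, with a promoter AP-1 site, went from 7.67 ± 0.33 (SD, n = 4) to 10.12 ± 0.09 (adjusted p = 6.5e-08). Ereg, the growth factor epiregulin, was below the background level on all SThdh7/7 arrays and at least 8.55-fold higher in SThdh111/111. Its fitted difference was 4.13 (adjusted p = 2.6e-07), and 3.10 with values below that level set to it. Ptgs2, the inducible cyclooxygenase, fell from 12.95 ± 0.20 to 10.12 ± 0.26 (adjusted p = 1.2e-09), and Ccnd1, cyclin D1, was lower by 1.73 (difference -1.73; adjusted p = 3.5e-10).

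Markers of some cell types differed between the lines. All 5 fibroblast markers (Dcn, Col1a1, Col1a2, Pdgfra and Lum) rose, with summed intensities of 5880 to 6538 in SThdh7/7 and 59862 to 72030 in SThdh111/111, and with Dcn and Lum below the background level on every SThdh7/7 array. Of 4 neural progenitor markers 3 fell, with sums of 5183 to 6660 and 1164 to 1507, and Fabp7 was below background on all arrays. Of 9 kept markers of striatal projection neurons 2 rose, Penk (difference 2.96) and Foxp1 (difference 0.29), with sums of 2013 to 2332 and 3017 to 3278. Penk was above background on 1 of 4 SThdh7/7 arrays and on all SThdh111/111 arrays. Of the 7 other kept Foxp1 probe sets 1 was called, also higher. Ppp1r1b and Drd1 were below background on all 8 arrays. Of 5 pan-neuronal markers 1 fell, Map2 (difference -0.52), with sums of 2185 to 2461 and 1628 to 1766, and Snap25 and Tubb3 were below background on all arrays. Of 5 astrocyte markers Slc1a3 rose (difference 1.82) and Aldh1l1 fell (difference -2.47), with sums of 1803 to 2426 and 1022 to 1288. The fall in the sums largely follows Aldh1l1 (mean 10.61 to 8.15), while the median difference of the 5 was 0.41. Slc1a3 was above background on 2 of 4 SThdh7/7 arrays, and 1 of its 4 other kept probe sets was called, also higher. Of 3 oligodendrocyte and 3 endothelial markers 0 were called in the limma fit and every 95% interval included 0 (0 at an unadjusted p under 0.05), and Mog and Pecam1 were below background on all arrays. Of 7 markers of microglia and blood cells 1 rose, with sums of 744 to 1031 and 897 to 1131, and Aif1, Itgam, Ptprc and C1qa were below background on all arrays. The part of these shifts in the differences of the AP-1 genes was not tested.

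The genes whose array profile was closest to Fosl1 were Bpgm, Cldn12 and F2r, at root mean square distances of 0.11, 0.13 and 0.13 log2 units over the 8 arrays after each gene was centred on its own mean. Those closest to Fos were Dipk1a, Mov10 and Cxcl12, at 0.14, 0.15 and 0.15. Their differences between the lines, -1.59 to -1.40 and 1.25 to 1.39, follow from this choice.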

How the data were processed

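The authors deposited a linear intensity for each probe set on each array. Per the submitters' processing notes the tool was GCRMA, but the trimmed mean of the deposited intensity values (2% removed at each end) was 500 on every array, a form of Affymetrix MAS5 signals, so the tool is not settled; such signals are noisy when dim. Log2 was taken. The 64 control probe sets were left out, and probe sets with log2 of at least 4 on at least 4 of 8 arrays were kept. Names came from the platform's gene table (updated by Entrez number); 34945 probe sets had 1 gene, 932 several and 9160 none. The fit was limma 3.58.1 (R 4.3.3; lmFit and eBayes with an intensity trend), two-sided, Benjamini-Hochberg over all kept probe sets. It was also run on simulated arrays with independent normal noise and few changed probe sets. That setting is simpler than these data, so it does not show how the fit performs on them. The background level came from 27 bacterial control probe sets: their 95th percentile, on the array where it was highest. That percentile was 98.7 to 130.0 on SThdh7/7 and 72.0 to 77.5 on SThdh111/111 arrays. A line wholly below the level gives a fold as a bound where the other line was above it on all arrays. The adjusted p of such a gene is that of its fitted difference. The number of arrays limits the precision.

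The members, lists, tests and the rule for named genes were chosen with earlier results of these data known. The rule took all 10 members, from each list up to 2 called genes per direction, ranked by adjusted p, and the 3 nearest profiles of the 2 members with the lowest adjusted p. Alternatives were other filters, quantile normalization, median centring, log2 of intensity plus 16, no trend, array weights, no probe sets ending in _x_at, _s_at or _a_at, sample number as a block, omitted samples, and means over probe sets; the fit without SThdh111/111 samples 1 and 2 was added after seeing the data. Figures were drawn with matplotlib.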

Additional observations from a re-analysis of the deposited data

How the results depend on the processing

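Fos, Fosl1 and Junb kept direction and call under all 21 alternatives, and Egr1, Egr2 and Egr3 were called under none. The near-zero difference of the brighter Fosl2 probe set turned positive after median centring (0.13), without SThdh111/111 sample 3 (0.0071) and without SThdh7/7 sample 4 (0.051), and single samples left out gave -0.082 to 0.051. With the mean over probe sets, 2 members were lower, bZIP partners were higher in 1 case, promoter factors in 1 (3 lower), and 3 Ras and MAP kinase genes were lower. Median centring left 2777 probe sets called lower in all (39.5% of its calls, against 56.0%), and lower counts of 5 for other immediate early genes, 3 for promoter factors, 1 for the Ras and MAP kinase pathway and 1 for cofactors. Without an intensity trend 2 members and 2 member probe sets were higher, promoter factors gave 1 higher and 3 lower, cofactors 2 lower, and Ras and MAP kinase genes 0 higher in the limma fit (4 at an unadjusted p under 0.05) and 3 lower. Quantile normalization and the replicate block each left 3 promoter factors lower. The block called 3957 probe sets higher and 4871 lower. Over all kept probe sets, same-numbered samples did not deviate together (correlations -0.014 to 0.0090), and not every sample correlated best with its own. With the block the SE fell for Fos (0.12 to 0.089), Fosb, Jun, Junb, Egr1 and Egr2, and rose for Fosl1, Fosl2, Jund and Egr3. Whether same-numbered samples share more than a number was not tested. Without SThdh111/111 samples 1 and 2, members and member probe sets were higher in 2 cases each, 3 promoter factors and 3 cofactors were lower, and 0 Ras and MAP kinase genes were higher in limma (3 unadjusted). Without SThdh7/7 samples 1 and 2, 3 promoter factors and 3 Ras and MAP kinase genes were lower. A filter at log2 8 left 1 bZIP partner lower, and so did leaving out probe sets that can match several transcripts, which called 2623 probe sets higher from fewer tested. Leaving out 1 sample at a time gave 3 to 5 members and 3 to 6 member probe sets higher, 3 to 5 promoter factors lower and 1 to 3 Ras and MAP kinase genes higher. The causes of these changes were not tested.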

Other observations

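The order of arrays seen for the members within SThdh111/111 was also seen among other immediate early genes. Samples 1 and 2 both lay above samples 3 and 4 for 15 of 32 of them, Ier2, Ier3, Ier5l, Egr4, Nr4a1, Dusp1, Zfp36, Btg2, Ccn1, Ccn2, Klf2, Klf4, Homer1, Sgk1 and Trib1, against 17.2% of all genes. Within SThdh7/7 it held for 9 of 32, against 29.6% of all genes. These 15 hold genes that rose between the lines (Dusp1, Zfp36) and genes that fell (Ccn1, Ccn2, Sgk1). Egr4 and Homer1, also among the 15, were each above the background level on 1 of 4 SThdh111/111 arrays. For them, most of the values compared were below that level. The order was chosen after the values were seen and has no test.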
